A study of Arabidopsis thaliana with 12 samples.

Results

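The genes described here are 10 genes of jasmonate synthesis in leaves of Arabidopsis thaliana, LOX2, LOX3, LOX4, AOS, AOC1, AOC2, AOC3, AOC4, OPR3 and JAR1. They were taken by locus code from 33602 loci in a table of RNA-seq read counts, and all 10 were found. Each is among the 18967 genes that passed the filter on low counts, so no member was lost from any test. They were followed across 4 groups of 3 libraries, 12 libraries in all.

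The 4 groups were cat2-2 gox2 plants after high light, cat2-2 gox2 plants under high CO2, cat2-2 gox1 plants after high light and cat2-2 gox1 plants under high CO2. Both lines are in the Columbia-0 ecotype and both carry the cat2-2 mutation in CAT2, the main catalase of leaves. One line also carries a mutation in GOX2 and the other in GOX1, which encode glycolate oxidases, peroxisomal enzymes of photorespiration that release hydrogen peroxide. High CO2 plants grew at 3000 ppm CO2, 120 µmol photons per square metre per second and 75% relative humidity. High light plants, at an age of 3 weeks, were moved to another chamber with ambient air (400 ppm CO2), 1200 µmol photons and 55% humidity for 3 h. Light, CO2, humidity, chamber and the move itself thus changed together and cannot be told apart. High CO2 libraries are labelled 0 h and high light libraries 3 h, so the time that passed differed with them. The term high light is used for all of them. Each library came from the pooled middle-aged leaves of 15 plants, and the set-up was repeated to give the 3 biological repeats. No line with intact CAT2 was analysed here, so every value below is from catalase-deficient leaves. The questions the design poses are what the move does in each line, and whether its effect depends on the line.

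Jasmonates are lipid hormones of wounding, herbivore defence and male fertility. Synthesis starts in the plastid, where 13-lipoxygenases (LOX2, LOX3 and LOX4) oxygenate linolenic acid, allene oxide synthase (AOS) turns the hydroperoxide into an unstable epoxide, and allene oxide cyclases (AOC1 to AOC4) close the ring to give OPDA. In the peroxisome OPR3 reduces OPDA, rounds of beta-oxidation shorten the side chain to jasmonic acid, and in the cytosol JAR1 joins it to isoleucine. That conjugate binds the receptor COI1 together with JAZ repressors, which are then degraded. Several synthesis genes are themselves induced by jasmonate.

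Library totals were 19571516 to 25314811 counts, and levels are in CPM (counts scaled to a common library size), where 1 count is at most 0.0526 CPM. GOX2 in cat2 gox2 leaves had 7.48, 122 and 6.98 CPM after high light and 16.5, 16.8 and 16.8 CPM under high CO2, while cat2 gox1 leaves had 451 to 653 CPM after high light and 932 to 1199 CPM under high CO2. The second cat2 gox2 high light library therefore goes partly against its label. GOX1 was at 943 to 2197 CPM in the libraries of cat2 gox2 and 128 to 284 CPM in those of cat2 gox1. GOX1 and GOX2 are close relatives, and how reads shared between them were counted is not given in the sources used here. Mesophyll markers (RBCS1A, CA1, RCA and LHCB1.1), which define the main leaf tissue, were present in all 12 libraries, each with 24588 counts or more. Of the flower markers AP3 reached at most 1 count and PI 2, while SEP3 had 2 to 14 and AG 5 to 27 in all 12 libraries. Of the root markers RHD6 had 0 counts, COBL9 at most 2 and EXPA7 at most 7.

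The number 3 libraries under high CO2 stood apart for these genes in both lines. In cat2 gox2 all 10 genes were higher in the number 3 library than in both others of its group, by a median of 0.92 (log2) over the mean of the other two, against 40.0% of all genes tested that were highest there. In cat2 gox1, 8 of 10 genes were highest in the number 3 library, with a median of 0.59, against 43.7% of all genes. Summed mesophyll markers were low in the same libraries, at 38326 CPM against 58338 and 63606 CPM in the others of cat2 gox2, and at 34807 CPM against 55349 and 55563 CPM in the others of cat2 gox1. Epidermis sums were lowest there too, at 130 against 194 and 191 CPM in cat2 gox2 and at 158 against 201 and 195 CPM in cat2 gox1, and guard cell sums were lowest at 65.0 and 73.2 CPM. Phloem sums were highest there, at 1208 CPM in cat2 gox2 and 1161 CPM in cat2 gox1. Other high CO2 libraries stood apart the other way. In cat2 gox2 replicate 2, 9 of 10 genes were the lowest of their group, with a median of -0.72, against 31.0% of all genes. In cat2 gox1 replicate 1, 9 of 10 genes were lowest, with a median of -0.42, against 26.0% of all genes. The part of tissue make-up in the gene values was not tested, and in bulk leaves fewer cells of a type and less RNA per cell cannot be told apart. The light response of each of the 10 genes is therefore given with and without both number 3 high CO2 libraries, and those of other genes where leaving these out changes a call. The number 3 libraries were chosen by the values of the 10 genes, so calls gained without them are no independent support.

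The 10 genes lie on 4 chromosomes of the TAIR10.1 assembly, and no annotated gene overlaps any of them. AOC1 (AT3G25760, chr3:9403779-9405338), AOC2 (AT3G25770, chr3:9406669-9408071) and AOC3 (AT3G25780, chr3:9409160-9411090) stand in a row on the plus strand, 1330 and 1088 bases apart with 0 genes between them. AOC4 (AT1G13280) is on chromosome 1 at chr1:4547388-4548894. Because the results turn on how unequally the cyclase genes responded, a matched stretch of 60 coding bases of each is printed, aligned without gaps and with the bases that differ among the 4 in capitals. It was chosen as a stretch with the fewest differences among AOC1, AOC2 and AOC3, so it shows more likeness than the whole coding sequence.
AOC1: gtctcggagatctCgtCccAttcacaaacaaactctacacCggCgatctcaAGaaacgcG
AOC2: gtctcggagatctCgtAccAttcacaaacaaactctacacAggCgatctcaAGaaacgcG
AOC3: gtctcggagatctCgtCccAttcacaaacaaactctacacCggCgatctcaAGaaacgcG
AOC4: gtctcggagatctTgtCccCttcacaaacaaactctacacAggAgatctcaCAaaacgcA
Of the 60 positions 8 differ among the 4 genes and 2 differ among the 3 genes of the row. Over the whole coding sequence AOC1 and AOC2 shared 90.3% of aligned bases, AOC1 and AOC3 82.0%, AOC2 and AOC3 82.2%, and AOC4 between 69.2% and 78.1% with the others. At most 3.35% of the 50-base words of one cyclase occur in another, which is the share of AOC1 words found in AOC3. Reads from such stretches could have been split or dropped, a limit on each cyclase's own level.

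Promoters are printed for LOX4, AOC3 and OPR3, 1 gene from each step that rose in both lines, and for LOX2 and AOS, which passed the test in neither line. Each is the 250 bases before the annotated start, read 5′ to 3′ on the gene's strand from the RefSeq TAIR10.1 genome, with motif matches on either strand in capitals. LOX4 (AT1G72520) starts after chr1:27308263-27308512 on the plus strand, AOC3 after chr3:9408910-9409159 on the plus strand and OPR3 (AT2G06050) after chr2:2362376-2362625 on the minus strand. The window of LOX2 (AT3G45140) is chr3:16524995-16525244 on the plus strand and that of AOS (AT5G42650) is chr5:17099596-17099845 on the minus strand.
LOX4: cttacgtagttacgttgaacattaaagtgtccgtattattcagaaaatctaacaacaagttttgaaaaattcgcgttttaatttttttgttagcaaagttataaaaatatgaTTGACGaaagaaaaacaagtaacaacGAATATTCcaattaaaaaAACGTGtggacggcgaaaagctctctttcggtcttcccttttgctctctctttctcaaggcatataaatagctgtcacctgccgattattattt
AOC3: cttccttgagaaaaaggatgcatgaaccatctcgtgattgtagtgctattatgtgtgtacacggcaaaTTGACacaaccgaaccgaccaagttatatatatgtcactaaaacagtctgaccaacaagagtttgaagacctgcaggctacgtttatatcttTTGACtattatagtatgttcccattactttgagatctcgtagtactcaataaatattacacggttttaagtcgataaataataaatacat
OPR3: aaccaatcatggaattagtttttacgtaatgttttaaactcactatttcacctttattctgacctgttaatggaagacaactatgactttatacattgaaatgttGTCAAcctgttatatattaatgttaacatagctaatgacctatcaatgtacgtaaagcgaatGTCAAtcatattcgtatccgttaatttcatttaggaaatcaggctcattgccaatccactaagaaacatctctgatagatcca
LOX2: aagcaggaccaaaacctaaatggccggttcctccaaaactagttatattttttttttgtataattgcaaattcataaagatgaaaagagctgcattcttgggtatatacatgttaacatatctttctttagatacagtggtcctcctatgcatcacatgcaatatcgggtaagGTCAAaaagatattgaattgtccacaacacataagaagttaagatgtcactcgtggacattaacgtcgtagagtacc
AOS: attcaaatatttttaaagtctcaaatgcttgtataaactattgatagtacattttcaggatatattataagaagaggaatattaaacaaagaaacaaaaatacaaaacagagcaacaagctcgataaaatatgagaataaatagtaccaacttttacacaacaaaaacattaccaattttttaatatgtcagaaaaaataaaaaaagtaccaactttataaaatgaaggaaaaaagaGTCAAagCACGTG
A set of 5 motifs was searched on both strands. The G-box CACGTG occurs in 6.49% of the 27443 promoter windows of the genome and, among the 10 genes, in AOS alone, at its last 6 bases. The related letters AACGTG, the T/G-box bound by MYC factors of jasmonate signalling, occur in 7.54% of windows and in 2 of 10 genes, LOX4 and AOC1. TTGAC, the core of the W-box of WRKY factors, occurs in 44.9% of windows and in 6 of 10 genes, with 2 matches each in AOC3 and OPR3. TGACG, the core bound by TGA factors, occurs in 18.6% of windows and in LOX4, where it overlaps TTGAC by 4 bases. GAANNTTC, a core of heat shock elements, occurs in 9.55% of windows and in LOX4. Genes that rose and genes that passed no test both held TTGAC, and the windows of AOC2, AOC4 and JAR1 held none of the 5 motifs.

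**Figure D1:**
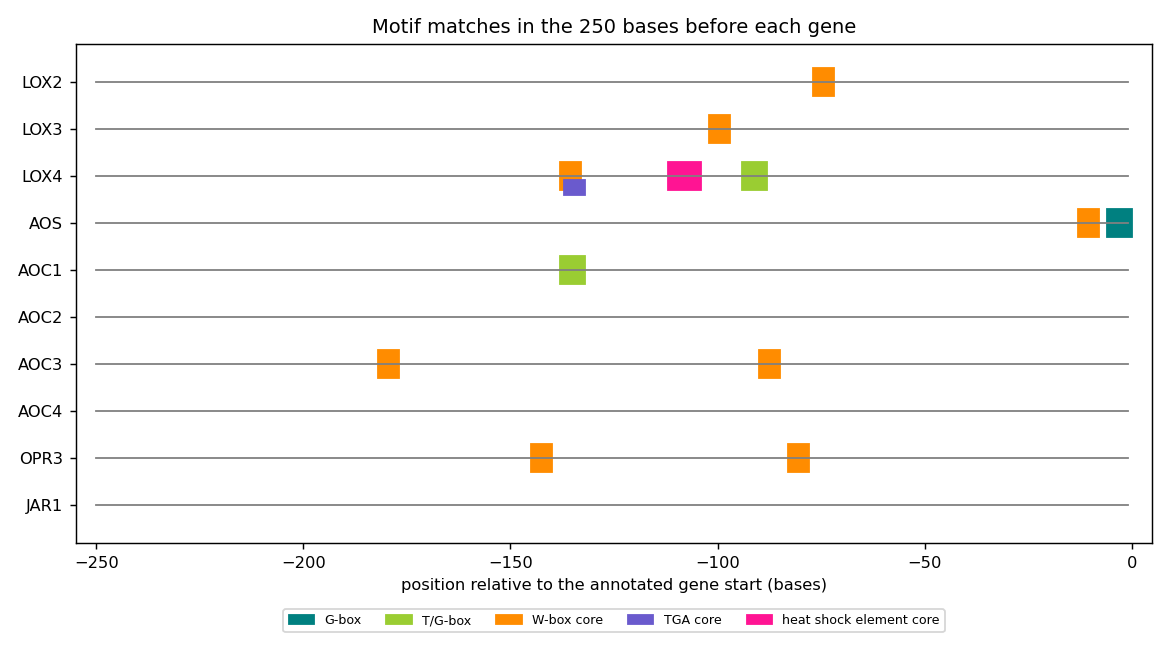
Position of each motif match (coloured boxes) in the 250 bases before each of the 10 genes, with the x axis in bases from the annotated start and 1 line per gene. LOX4 holds 4 of the 5 kinds of match between -138 and -89, while AOC2, AOC4 and JAR1 hold none.

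Under both conditions LOX2 was the most abundant of the 10 genes, and the order of the others depended on the condition. Per kilobase of exon, which allows genes to be compared, LOX2 averaged 804 ± 80.0 CPM per kb in cat2 gox2 after high light, 1114 ± 362 in cat2 gox2 under high CO2, 1095 ± 84.5 in cat2 gox1 after high light and 895 ± 58.0 in cat2 gox1 under high CO2 (SD, n = 3 each). AOC2 and AOS followed in every group, then AOC1. In cat2 gox2 after high light the libraries of LOX2 (714 to 868 CPM per kb) overlapped those of AOC2 (501 to 769). In the other groups LOX2 did not overlap the next gene. After high light AOC2 lay above AOS without overlap of libraries in both lines, with mean levels of 615 against 357 CPM per kb in cat2 gox2 and 756 against 337 in cat2 gox1. Under high CO2 the libraries of AOS and AOC2 overlapped in both lines. In cat2 gox2 after high light the 5 lowest genes, AOC4, JAR1, LOX4, AOC3 and LOX3, ran from 33.6 to 21.7 CPM per kb, each overlapping the next. Under high CO2 the low end was spread wider, with LOX3 at 14.3, LOX4 at 5.02 and AOC3 at 2.06 CPM per kb in cat2 gox2 and at 11.2, 4.63 and 1.64 CPM per kb in cat2 gox1.

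**Figure D2:**
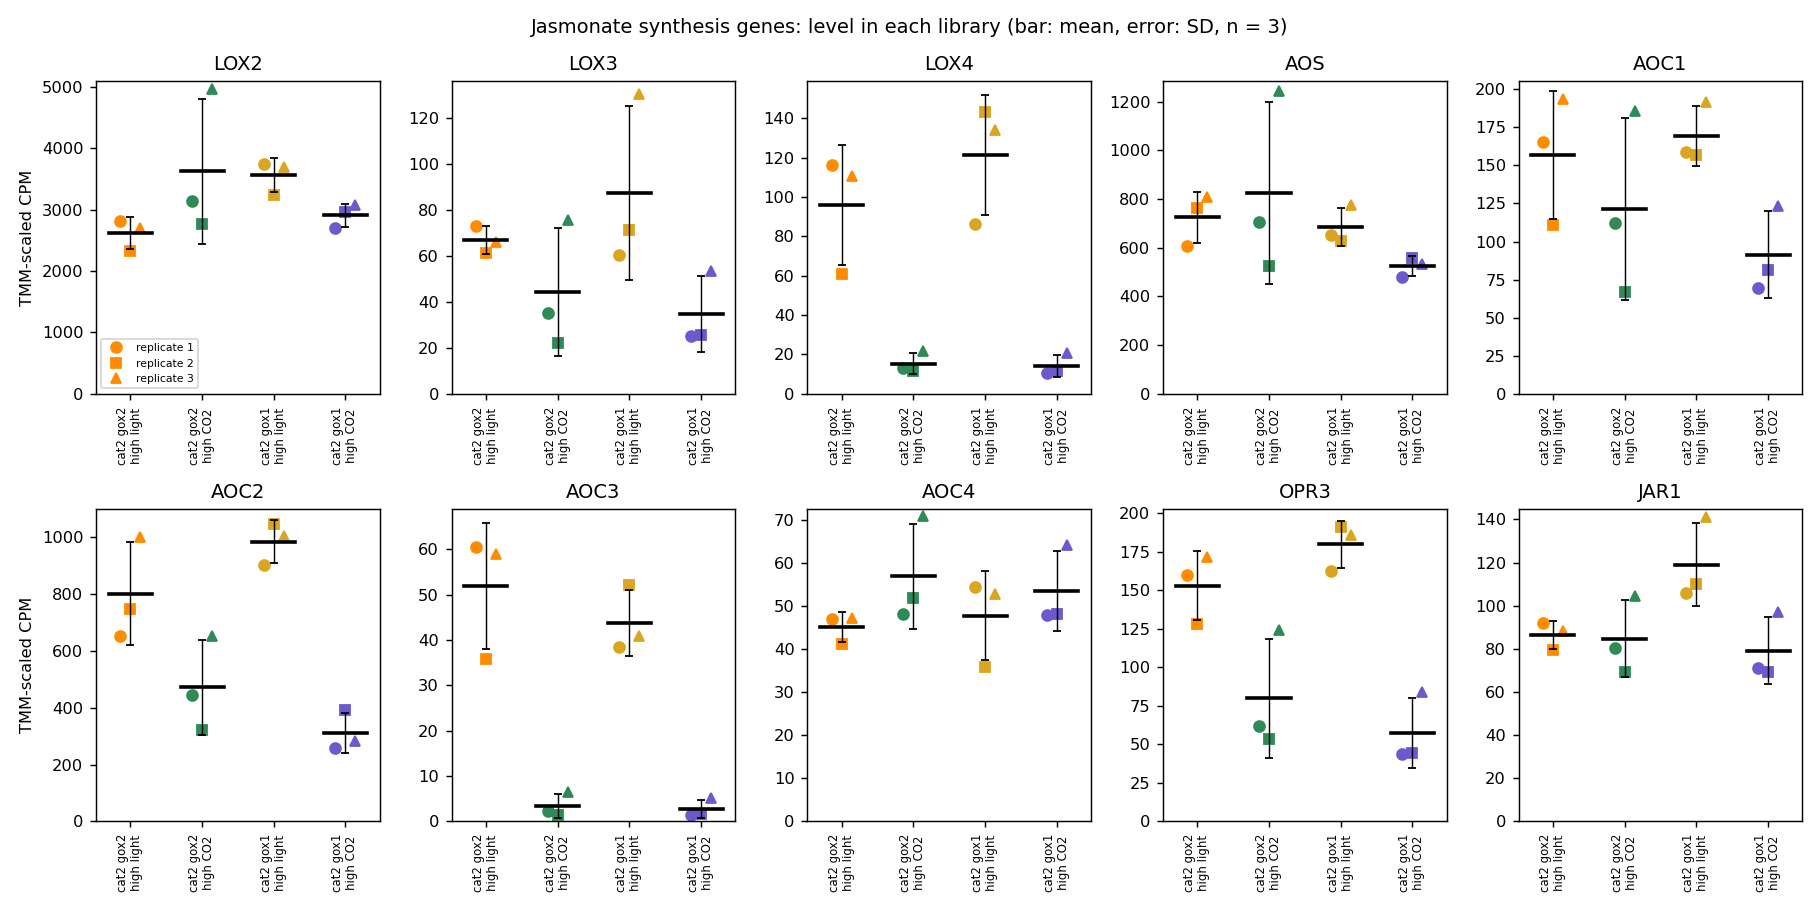
Scaled CPM of each gene in every library, by group, with a linear axis from 0 in each panel; symbols mark replicates 1 to 3, horizontal bars the mean and error bars the SD of 3 libraries. AOC3 and LOX4 separate high light from high CO2 in both lines, and the triangle of replicate 3 is the highest of all 3 high CO2 libraries of cat2 gox2 in every panel.

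Some synthesis genes at the lipoxygenase, cyclase and OPR3 steps were called higher after high light in both lines. LOX4 and AOC3, minor genes of their families, had the largest changes. In cat2 gox2 only the calls of these 2 genes held in every fit that left out 1 library. AOS passed the test in neither line. In cat2 gox2, 4 of 10 genes rose (LOX4, AOC2, AOC3 and OPR3) and 0 fell at an adjusted p under 0.05 (edgeR quasi-likelihood test, Benjamini-Hochberg over all genes), against 27.7% of all genes called higher and 29.2% called lower. In cat2 gox1, 7 of 10 rose (LOX3, LOX4, AOC1, AOC2, AOC3, OPR3 and JAR1) and 0 fell, against 25.6% called higher and 26.5% lower. The median change was 0.48 (log2) over the 10 genes and -0.09 over all genes in cat2 gox2, and 1.11 and -0.06 in cat2 gox1. All 3 high light libraries lay above all 3 high CO2 libraries for 4 of 10 genes in cat2 gox2, against 30.8% of all genes, and for 9 of 10 in cat2 gox1, against 28.9%. AOC4 was the exception in cat2 gox1. In cat2 gox2 the share of members called higher is thus not far from that of all genes. Summed mesophyll markers were at 19498 to 26930 CPM in cat2 gox2 after high light and 38326 to 63606 CPM under high CO2, and at 14289 to 24532 CPM in cat2 gox1 after high light and 34807 to 55563 CPM under high CO2, with all 4 markers called lower in each line. Epidermis markers also summed lower, at 91.0 to 96.9 against 130 to 194 CPM in cat2 gox2 and at 126 to 138 against 158 to 201 CPM in cat2 gox1, while guard cell and phloem sums overlapped between conditions except for phloem in cat2 gox1 (776 to 869 against 880 to 1161 CPM). Of 6 guard cell markers 1 was called higher and 2 lower in each line. Of 6 phloem markers 0 were called in cat2 gox2, and 3 were called lower in cat2 gox1. The part of these shifts in the gene results was not tested.

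**Figure D3:**
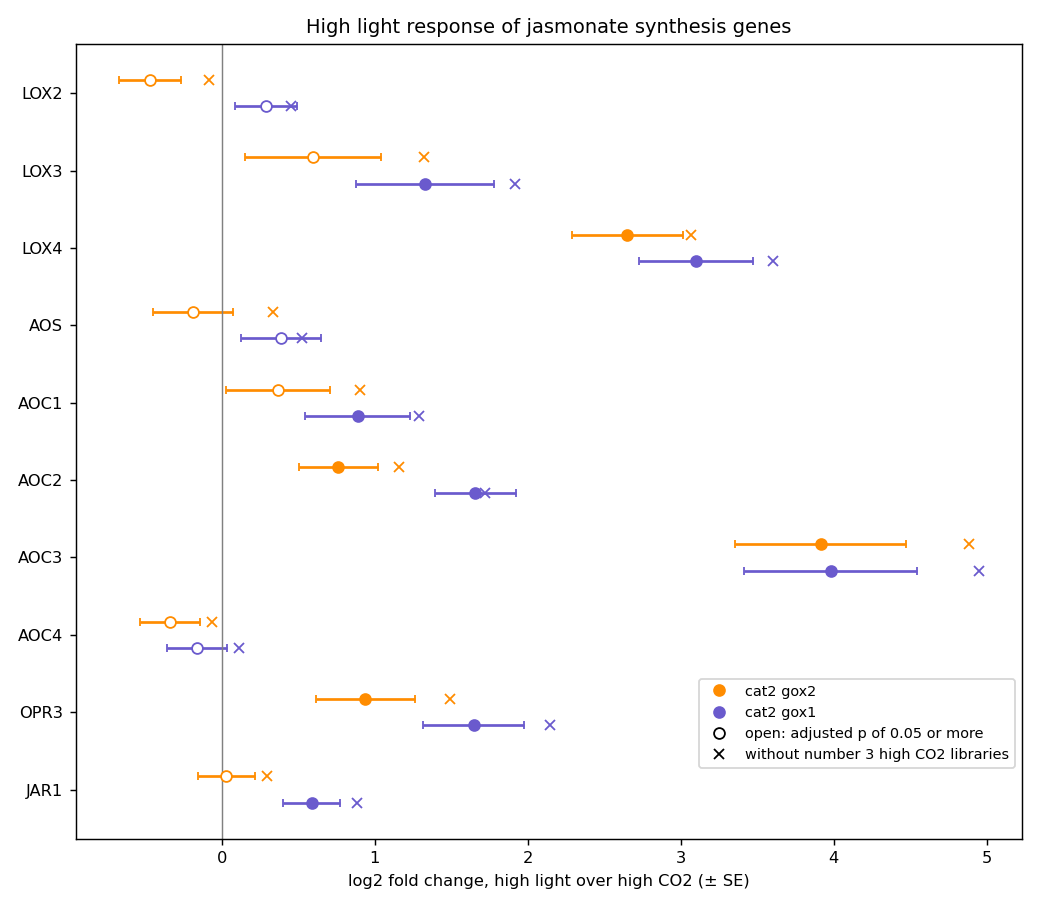
Log2 fold change of each gene, high light over high CO2, with its SE; orange points are cat2 gox2, purple points cat2 gox1, filled points have an adjusted p under 0.05, and crosses are the values without both number 3 high CO2 libraries. Without those libraries the crosses lie to the right of the points for all 10 genes in both lines. Those libraries were left out because most of the genes were high in them, which in itself moves crosses to the right.

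Of the 3 plastid lipoxygenases, LOX4 had the largest changes. LOX4 in cat2 gox2 had 116, 61.0 and 111 CPM after high light, against 13.0, 11.4 and 21.5 CPM under high CO2. In cat2 gox1 LOX4 had 86.5, 143 and 134 CPM after high light, against 10.3, 11.4 and 20.6 CPM under high CO2. The groups did not overlap in either line, and the log2 change was 2.65 ± 0.36 in cat2 gox2 (SE, adjusted p = 9.9e-05) and 3.10 ± 0.37 in cat2 gox1 (adjusted p = 5.1e-05). Both calls held in each of 12 fits that left out 1 library, and without both number 3 high CO2 libraries the values were 3.07 and 3.60.

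LOX3 (AT1G17420), which acts with LOX4 in male fertility, rose in cat2 gox1 and was not called in cat2 gox2. In cat2 gox2 its level was 73.2, 61.4 and 65.9 CPM after high light, against 35.0, 22.1 and 75.6 CPM under high CO2, so that the number 3 high CO2 library lay above all high light libraries. In cat2 gox1 it was 60.3, 71.2 and 130 CPM after high light, against 24.9, 25.5 and 53.6 CPM under high CO2, without overlap. The log2 change was 0.60 ± 0.45 in cat2 gox2 (adjusted p = 0.273) and 1.33 ± 0.45 in cat2 gox1 (adjusted p = 0.0283). With the replicate number as a block the cat2 gox2 value was 0.80 (adjusted p = 0.0273), and without both number 3 high CO2 libraries it was 1.32 (adjusted p = 0.0031), with 1.92 in cat2 gox1. The cat2 gox1 call was lost without high CO2 replicate 1, high CO2 replicate 2 or high light replicate 3 of that line, where the highest adjusted p was 0.127.

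LOX2, the main lipoxygenase of wounded leaves, passed the test in neither line. Its levels in cat2 gox2 were 2821, 2323 and 2702 CPM after high light, against 3139, 2765 and 4964 CPM under high CO2. In cat2 gox1 they were 3742, 3244 and 3695 CPM after high light, against 2704, 2956 and 3073 CPM under high CO2. The fitted changes pointed in opposite directions, -0.47 ± 0.20 in cat2 gox2 (adjusted p = 0.0685) and 0.29 ± 0.20 in cat2 gox1 (adjusted p = 0.249). In cat2 gox2 LOX2 was called lower with the replicate block (-0.44, adjusted p = 0.0399) and without high CO2 replicate 2 (-0.63, adjusted p = 0.0254), whereas without both number 3 high CO2 libraries it was -0.08 (adjusted p = 0.640). In cat2 gox1 LOX2 was called higher without those libraries (0.45, adjusted p = 0.0235).

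The make-up of the lipoxygenase family changed with the condition. LOX4 made up 3.62% ± 0.83 of the summed LOX2, LOX3 and LOX4 level per kb in cat2 gox2 after high light and 0.440% ± 0.011 under high CO2, and 3.46% ± 1.03 in cat2 gox1 after high light and 0.502% ± 0.168 under high CO2 (SD, n = 3 each). LOX2 remained the bulk, with 93.9% and 98.4% in cat2 gox2 after high light and under high CO2, and 94.1% and 98.3% in cat2 gox1. These shares describe transcripts per length and carry no test of their own.

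AOS, the single allene oxide synthase gene, has 1 exon and was not called in either line. Its level in cat2 gox2 was 606, 761 and 806 CPM after high light, against 704, 525 and 1245 CPM under high CO2. In cat2 gox1 it was 652, 629 and 776 CPM after high light, against 478, 558 and 534 CPM under high CO2, without overlap. The log2 change was -0.19 ± 0.26 in cat2 gox2 (adjusted p = 0.563) and 0.39 ± 0.26 in cat2 gox1 (adjusted p = 0.231). Without both number 3 high CO2 libraries the values were 0.33 in cat2 gox2 (adjusted p = 0.131) and 0.53 in cat2 gox1 (adjusted p = 0.0273), so the direction in cat2 gox2 rests on 1 library.

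The 4 cyclase genes ranged from the largest rise among the members to no call. AOC3 in cat2 gox2 had 60.6, 35.9 and 59.0 CPM after high light, against 2.31, 1.43 and 6.53 CPM under high CO2. In cat2 gox1 AOC3 had 38.5, 52.1 and 40.8 CPM after high light, against 1.50, 1.57 and 5.08 CPM under high CO2. AOC3 rose 15.1-fold in cat2 gox2 (log2 3.92 ± 0.56, adjusted p = 0.00013) and 15.8-fold in cat2 gox1 (log2 3.98 ± 0.56, adjusted p = 0.00017), and both calls held in all 12 fits that left out 1 library. The size of the rise depends on the number 3 high CO2 libraries. Without both of them AOC3 was 29.5-fold higher in cat2 gox2 (log2 4.88) and 31.0-fold higher in cat2 gox1 (log2 4.95), and without that of its own line alone the log2 changes were 4.79 and 4.85. The low groups rest on 29 to 133 counts per library.

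AOC2, the most abundant cyclase gene, rose in both lines by less. AOC2 had 652, 748 and 1000 CPM after high light, against 443, 321 and 650 CPM under high CO2, in cat2 gox2, where the lowest high light library lay just above the highest high CO2 library. In cat2 gox1 the levels were 901, 1046 and 1002 CPM after high light, against 259, 391 and 283 CPM under high CO2. The log2 change was 0.76 ± 0.26 in cat2 gox2 (adjusted p = 0.0253) and 1.66 ± 0.26 in cat2 gox1 (adjusted p = 0.00036). The cat2 gox2 call was lost without high CO2 replicate 1, high CO2 replicate 2 or high light replicate 3 of that line (highest adjusted p = 0.109), and the cat2 gox1 call held in all 12 fits. The values were 1.16 and 1.72 without both number 3 high CO2 libraries.

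AOC1 and AOC4 changed little beside AOC3. AOC1 in cat2 gox2 had 166, 111 and 193 CPM after high light, against 112, 66.8 and 186 CPM under high CO2, with overlap. In cat2 gox1 it had 159, 157 and 192 CPM after high light, against 69.2, 81.4 and 123 CPM under high CO2, without overlap. Its log2 change was 0.37 ± 0.34 in cat2 gox2 (adjusted p = 0.375) and 0.89 ± 0.34 in cat2 gox1 (adjusted p = 0.0482). That call was lost in 8 of 12 fits that left out 1 library, and without both number 3 high CO2 libraries AOC1 was called in both lines (0.91, adjusted p = 0.0088 in cat2 gox2, and 1.29, adjusted p = 0.0013 in cat2 gox1). AOC4 had 41.1 to 47.3 CPM after high light and 48.1 to 70.8 CPM under high CO2 in cat2 gox2, and 35.8 to 54.4 CPM after high light and 48.0 to 64.1 CPM under high CO2 in cat2 gox1. AOC4 was lower in all 3 high light libraries of cat2 gox2, as were 32.4% of all genes, but its change of -0.34 ± 0.20 had an adjusted p of 0.163, and in cat2 gox1 it was -0.16 ± 0.20 (adjusted p = 0.504). AOC4 had -0.06 and 0.11 without both number 3 high CO2 libraries.

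**Figure D4:**
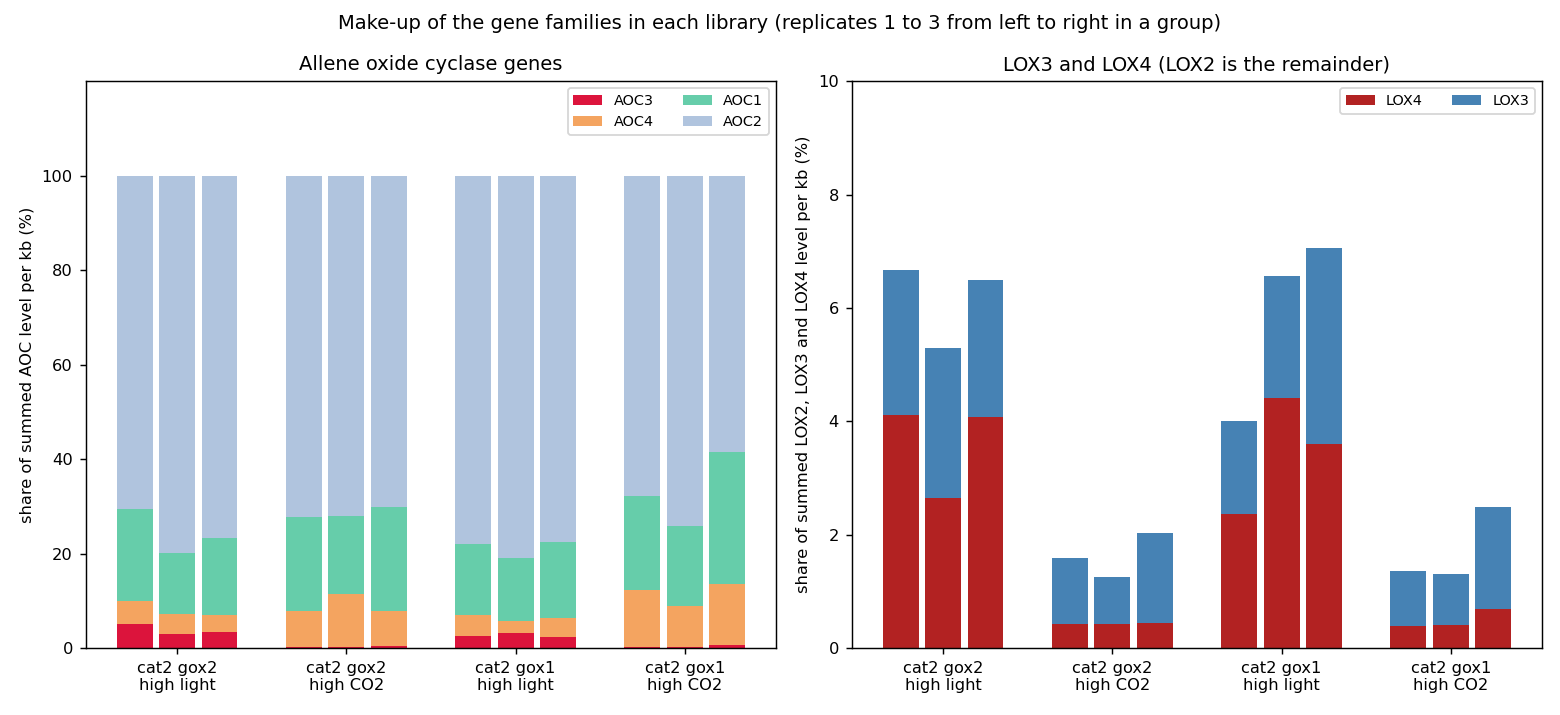
Share of each gene in the summed level per kb of its family in every library, with bars in order of replicate within a group; left, the 4 AOC genes, and right, LOX3 and LOX4 with LOX2 as the remainder. AOC3 made up 3.89% in cat2 gox2 after high light and 0.366% under high CO2, and 2.74% in cat2 gox1 after high light and 0.454% under high CO2.

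AOC2 kept the largest share of the cyclase family throughout, at 75.7% ± 4.8 in cat2 gox2 after high light and 71.5% ± 1.1 under high CO2, and at 78.7% ± 1.9 in cat2 gox1 after high light and 66.8% ± 7.8 under high CO2. AOC3, in spite of its large fold change, was at most 5.13% of the family in any library. AOC4 made up 4.22% ± 0.70 of the family in cat2 gox2 after high light, against 8.75% ± 2.19 under high CO2, and 3.73% ± 0.96 in cat2 gox1 after high light, against 11.3% ± 2.1 under high CO2, without overlap in either line.

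OPR3, the peroxisomal reductase of the main route, rose in both lines. OPR3 in cat2 gox2 had 160, 128 and 172 CPM after high light, against 61.8, 53.8 and 124 CPM under high CO2. In cat2 gox1 it had 163, 191 and 186 CPM after high light, against 43.7, 44.7 and 83.8 CPM under high CO2. The highest high CO2 library of cat2 gox2 almost reached the lowest high light library. The log2 change was 0.94 ± 0.32 in cat2 gox2 (adjusted p = 0.0276) and 1.65 ± 0.33 in cat2 gox1 (adjusted p = 0.0016). The cat2 gox2 call was lost without either of the high CO2 replicates 1 and 2 or the high light replicates 1 and 3 of that line (highest adjusted p = 0.103), and without both number 3 high CO2 libraries the change there was 1.50 (adjusted p = 9.6e-06). The cat2 gox1 call held in all 12 fits, with 2.15 without both number 3 high CO2 libraries.

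JAR1 (AT2G46370), which makes the active isoleucine conjugate, rose in cat2 gox1. There it had 106, 110 and 141 CPM after high light, against 71.2, 69.5 and 96.9 CPM under high CO2, a log2 change of 0.59 ± 0.18 (adjusted p = 0.0195). In cat2 gox2 it had 92.2, 79.6 and 88.1 CPM after high light, against 80.6, 69.3 and 104 CPM under high CO2, with overlap and a change of 0.03 ± 0.18 (adjusted p = 0.897). The cat2 gox1 call was lost without high CO2 replicate 1, high CO2 replicate 2 or high light replicate 3 of that line (highest adjusted p = 0.0827). JAR1 had 0.30 in cat2 gox2 (adjusted p = 0.0836) and 0.88 in cat2 gox1 without both number 3 high CO2 libraries.

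With both number 3 high CO2 libraries left out, 6 of 10 genes were called higher in cat2 gox2, against 4 with all libraries, and 9 of 10 in cat2 gox1, against 7. The share of all genes called higher also increased, to 32.9% in cat2 gox2 and 33.6% in cat2 gox1. The median changes were then 1.03 and 1.51 (log2), against 0.01 and 0.08 over all genes. These libraries were left out because the genes were high in them, so larger rises follow in part from that choice. The added calls are therefore no independent sign of a wider rise. AOC4 was the gene called in neither line. Leaving out cat2 gox2 high CO2 replicate 2 instead, where 9 of 10 genes were the lowest of their group, moved the cat2 gox2 median to 0.17. Over all genes it was -0.10 in that fit, and 2 members were called higher and 1 lower.

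No synthesis gene was called different between the lines after high light. The edgeR count was 0 of 10 (1 at an unadjusted p under 0.05, and 0 with DESeq2), against 5.27% of all genes called higher and 1.28% called lower in cat2 gox2. Of the 10 fitted values 8 were below 0, with a median of -0.26 against -0.01 over all genes. JAR1 was lower in every cat2 gox2 library than in every cat2 gox1 library, as were 12.2% of all genes, with a difference of -0.46 ± 0.18 (unadjusted p = 0.0292, adjusted p = 0.183). With the replicate block JAR1 passed the threshold (-0.44, adjusted p = 0.0456). LOX2 likewise did not overlap between the lines, with a difference of -0.45 ± 0.20 (adjusted p = 0.253). Without both number 3 high CO2 libraries, which enter this comparison only through the shared estimate of the spread and the scaling, both genes were called lower in cat2 gox2 (LOX2 -0.46, adjusted p = 0.0494, and JAR1 -0.48, adjusted p = 0.0322), against 3.57% of all genes called lower in that fit. The SE of LOX2 was then 0.13, with nearly the same difference. Those libraries were left out because these genes stood apart in them, so a smaller spread follows in part from that choice. The 2 calls are therefore no independent sign of a difference between the lines. Leaving out the cat2 gox2 high light library with 122 CPM of GOX2 moved the median to -0.11 and made no call. In that library 8 of the 10 genes were the lowest of their group, as were 40.8% of all genes tested.

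Under high CO2 no synthesis gene was called different between the lines (edgeR, 0 of 10, 2 at an unadjusted p under 0.05, and 0 with DESeq2), and 0.0158% of all genes were called higher and 0% lower in cat2 gox2. All 10 fitted values were above 0, from 0.09 for AOC4 to 0.66 for AOS, with a median of 0.33. This direction depended on which libraries were kept. Without the number 3 high CO2 library of cat2 gox2 alone the median was -0.06, with 4 genes above 0 and 6 below. Without both number 3 high CO2 libraries the median was 0.22, with 10 genes above 0 and 0 below. With the replicate block it was 0.30, again with 10 above 0. The approximate 95% intervals of the folds, cat2 gox2 over cat2 gox1, were 0.94 to 1.64 for LOX2 and 1.103 to 2.25 for AOS. AOS had an unadjusted p of 0.0295 by edgeR and was not called after adjustment. Its log2 difference was 0.66 with all libraries and 0.26 without both number 3 high CO2 libraries.

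The difference between the lines' light responses was tested directly, and 0 of 10 genes passed (2 at an unadjusted p under 0.05, and 0 with DESeq2), against 0.996% of all genes called higher and 0.0422% called lower. The smaller number of calls in cat2 gox2 is therefore not shown to be a difference between the lines. Each of the 10 values was below 0, from -0.90 for AOC2 to -0.06 for AOC3, with a median of -0.57 against -0.01 over all genes. LOX2, with -0.76 ± 0.29, had an unadjusted p of 0.0226 and an adjusted p of 0.357, and AOC2, with -0.90 ± 0.36, had an unadjusted p of 0.031 and an adjusted p of 0.409. The approximate 95% interval of the ratio of light responses, cat2 gox2 over cat2 gox1, was 0.40 to 0.87 for LOX2 and 0.35 to 2.60 for AOC3, so a wide range of differences remains possible for AOC3. Without the number 3 high CO2 library of cat2 gox2 alone the median was -0.14, and 2 of 10 values were above 0. Without both number 3 high CO2 libraries the median was -0.54, and with the replicate block -0.53, with 0 of 10 values above 0 in each.

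Upstream of the lipoxygenases, desaturases that supply linolenic acid fell while lipases rose. In this list 5 of 8 genes could be tested, and in each line 2 rose and 3 fell. Over all genes 27.7% were called higher and 29.2% lower in cat2 gox2, and 25.6% higher and 26.5% lower in cat2 gox1, and the counts of the lists that follow stand beside these shares. FAD3 fell by 0.80 (log2) in cat2 gox2 and by 0.75 in cat2 gox1, and FAD8, a plastid desaturase, fell by 1.12 and by 1.35. FAD7 fell by 0.55 in cat2 gox2 (adjusted p = 0.0203) and by 0.46 in cat2 gox1 (adjusted p = 0.0499), a call lost in 4 and in 10 of 12 fits that left out 1 library. The plastid lipase PLIP3 rose by 2.68 ± 0.32 in cat2 gox2 and by 1.87 ± 0.32 in cat2 gox1. Its relative PLIP2 rose by 1.91 ± 0.31 in cat2 gox2 and by 0.98 ± 0.31 in cat2 gox1, the second call being lost in 4 of 12 such fits. PLIP2 was not called between the lines after high light (0.81 ± 0.29, adjusted p = 0.143) or in the difference of light responses (0.94 ± 0.43, adjusted p = 0.507), but was in both with the replicate block (adjusted p = 0.0026 and 0.0326). Without both number 3 high CO2 libraries PLIP3 was called higher in cat2 gox2 between the lines after high light (0.81, adjusted p = 0.0060). DAD1, DGL and PLIP1 did not pass the filter on low counts.

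Among the other lipoxygenases, LOX6, a further 13-lipoxygenase, fell in both lines, by 0.71 in cat2 gox2 and by 0.67 in cat2 gox1. LOX5, a 9-lipoxygenase, rose by 1.15 ± 0.25 in cat2 gox2, and its value in cat2 gox1 was 0.51 ± 0.25 (adjusted p = 0.105), or 0.79 without both number 3 high CO2 libraries (adjusted p = 0.0267). LOX1, the other 9-lipoxygenase, was not called in either line (-0.43 in cat2 gox2 and -0.40 in cat2 gox1), but was with the replicate block (adjusted p = 0.0326 and 0.0378). HPL1, a hydroperoxide lyase gene known to be defective in Columbia-0, had -0.87 ± 0.42 in cat2 gox2 (adjusted p = 0.0982, and 0.00083 with the replicate block) and -0.09 ± 0.42 in cat2 gox1.

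OPR1 and OPR2, relatives of OPR3 outside the peroxisome, rose more than OPR3. OPR1 had 4183, 3747 and 4440 CPM after high light, against 79.3, 69.3 and 94.4 CPM under high CO2, in cat2 gox2. In cat2 gox1 it had 1982, 2939 and 1810 CPM after high light, against 72.3, 70.7 and 81.5 CPM under high CO2. These are log2 changes of 5.67 ± 0.24 and 4.91 ± 0.23. OPR2 rose by 3.14 ± 0.28 in cat2 gox2 and by 3.00 ± 0.28 in cat2 gox1. After high light OPR1 was higher in cat2 gox2 than in cat2 gox1 by 0.88 ± 0.19 (adjusted p = 0.0200), a call lost in 4 of 12 fits that left out 1 library. OPR1 and OPR2 are close relatives, so reads shared between them are uncertain.

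**Figure D5:**
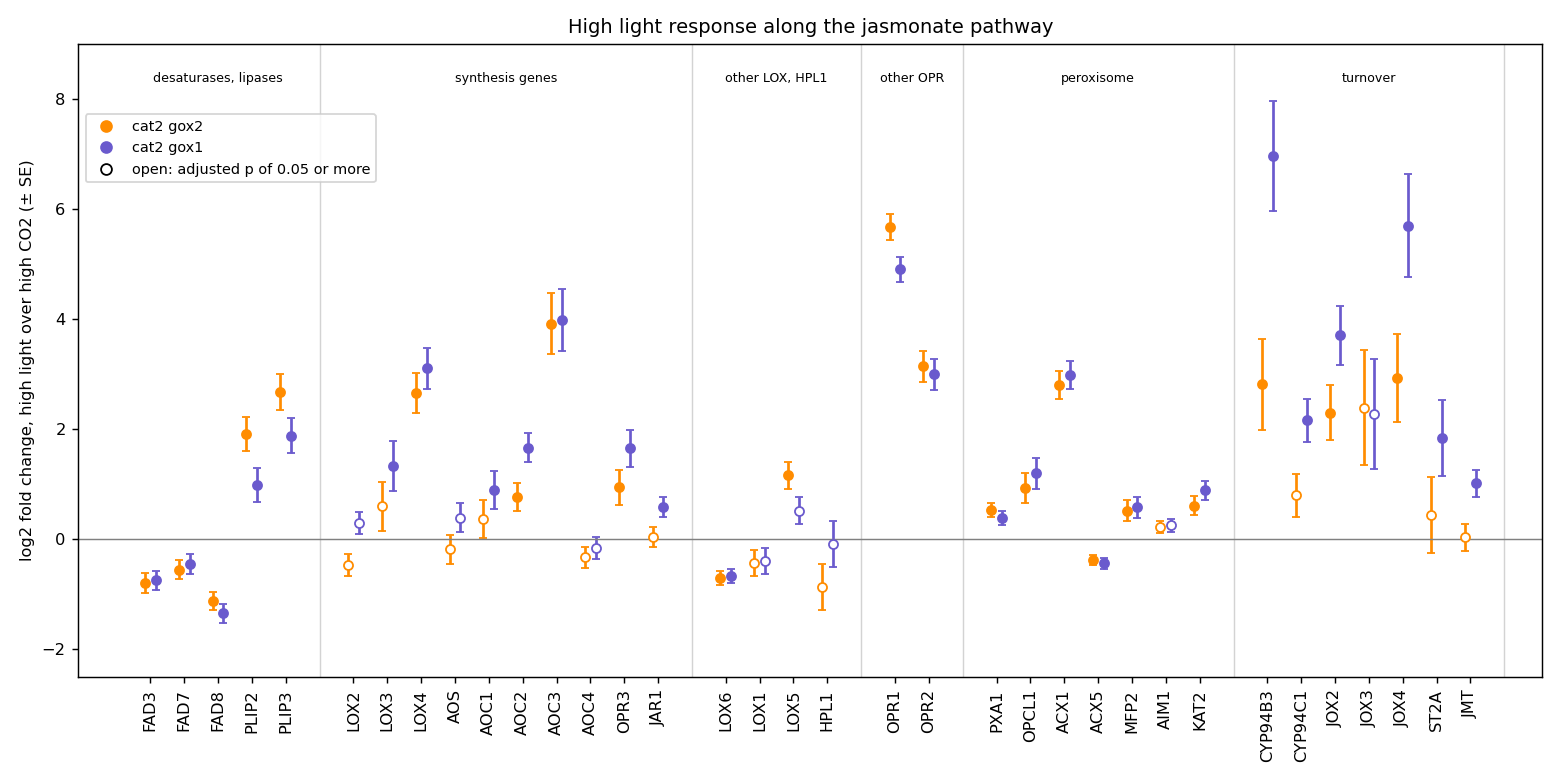
Log2 fold change, high light over high CO2, with its SE, for tested genes of the pathway grouped by step; orange points are cat2 gox2, purple points cat2 gox1, and open points did not pass an adjusted p of 0.05. OPR1 and OPR2 lie at 5.67 and 3.14 in cat2 gox2, above OPR3 at 0.94, and the turnover genes CYP94B3 and JOX4 reach 6.96 and 5.70 in cat2 gox1.

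In the peroxisomal steps after OPR3, 5 of 7 genes rose and 1 fell in each line, against 27.7% of all genes called higher and 29.2% lower in cat2 gox2 and 25.6% and 26.5% in cat2 gox1. The acyl-CoA oxidase ACX1 rose by 2.80 ± 0.25 in cat2 gox2 and by 2.99 ± 0.26 in cat2 gox1, while ACX5 fell by 0.38 and by 0.44. OPCL1, which activates the OPR3 product with coenzyme A, rose by 0.93 in cat2 gox2 and by 1.20 in cat2 gox1. The thiolase KAT2 rose by 0.60 and by 0.89, the multifunctional protein MFP2 by 0.52 and by 0.58, and the transporter PXA1 by 0.53 and by 0.38. The calls of OPCL1 in cat2 gox2 (2 of 12), MFP2 in both lines (5 and 4 of 12) and PXA1 in cat2 gox1 (4 of 12) were lost in some fits that left out 1 library. AIM1 was called in neither line by edgeR (0.22 and 0.25), but in both without both number 3 high CO2 libraries (0.35, adjusted p = 0.0276, and 0.44, adjusted p = 0.0098). ACX1, MFP2 and KAT2 also serve fatty acid breakdown in general.

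Of the 7 tested genes of jasmonate turnover, 3 were called higher in cat2 gox2, against 27.7% of all genes, and 6 in cat2 gox1, against 25.6%, with 0 lower in either. Without both number 3 high CO2 libraries the counts were 6 of 7 in cat2 gox2, against 32.9% of all genes, and 7 of 7 in cat2 gox1, against 33.6%. CYP94B3, which oxidises the isoleucine conjugate, had 6.40, 6.03 and 10.7 CPM after high light, against 0.210, 0.148 and 2.90 CPM under high CO2, in cat2 gox2. In cat2 gox1 it had 12.03, 39.7 and 45.03 CPM after high light, against 0.0517, 0.139 and 0.516 CPM under high CO2. The log2 changes were 2.81 ± 0.83 and 6.96 ± 1.00, and the cat2 gox1 value is set by high CO2 libraries with 1, 3 and 13 counts. With 1 library left out, the cat2 gox2 value ran from 2.29 to 5.40 and the cat2 gox1 value from 6.55 to 8.31, each highest without the number 3 high CO2 library of its line. Between the lines after high light CYP94B3 was not called (-2.06 ± 0.70, adjusted p = 0.117), but was called lower in cat2 gox2 with the replicate block (-1.94, adjusted p = 0.0302) and without both number 3 high CO2 libraries (-2.08, adjusted p = 0.0097). JOX2, a jasmonate hydroxylase, rose by 2.30 ± 0.50 in cat2 gox2 and by 3.70 ± 0.53 in cat2 gox1, and JOX4 by 2.92 ± 0.80 and by 5.70 ± 0.94. With 1 library left out JOX2 ran from 1.97 to 3.04 in cat2 gox2 and from 3.38 to 4.32 in cat2 gox1, and JOX4 from 2.37 to 5.10 and from 5.10 to 6.78, each again highest without the number 3 high CO2 library of its line. CYP94C1 rose in cat2 gox1 by 2.16 ± 0.40, with 0.79 ± 0.39 in cat2 gox2 (adjusted p = 0.104), or 1.27 there without both number 3 high CO2 libraries (adjusted p = 0.0045). JMT, a carboxyl methyltransferase, rose in cat2 gox1 by 1.01 ± 0.25, with 0.03 ± 0.25 in cat2 gox2 (adjusted p = 0.925), or 0.49 there without those libraries (adjusted p = 0.0328). ST2A, a sulfotransferase of hydroxyjasmonate, rose in cat2 gox1 by 1.84 ± 0.69, a call lost in 5 of 12 fits that left out 1 library, which ran from 0.83 to 2.41, with 0.44 ± 0.69 in cat2 gox2 (adjusted p = 0.608). JOX3 was called in neither line (2.39 and 2.27), but was with the replicate block (adjusted p = 0.0087 and 0.0112) and without both number 3 high CO2 libraries (4.82 and 5.53). No turnover gene passed the test of the difference between the light responses by edgeR (0 of 7, 4 at an unadjusted p under 0.05, and 0 with DESeq2).

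Of the receptor gene COI1 and the JAZ repressors, 12 genes were tested, and 4 were called higher in cat2 gox2, against 27.7% of all genes, and 10 in cat2 gox1, against 25.6%, with 0 lower. In cat2 gox2 that share is near the background. With the replicate block 5 were called there, JAZ2 in addition (0.45 ± 0.21, adjusted p = 0.0926, and 0.45, adjusted p = 0.0412 with the block), and without both number 3 high CO2 libraries 7 were, with 10 still the count in cat2 gox1. JAZ1 had 136, 91.8 and 114 CPM after high light, against 14.8, 8.31 and 18.2 CPM under high CO2, in cat2 gox2, and it rose by 3.04 ± 0.34 there and by 3.45 ± 0.35 in cat2 gox1, the largest rise past the threshold in both lines with all libraries in the fit. COI1 was called in neither (-0.22 and -0.04). Of the calls, 2 in cat2 gox2 (JAZ6 and JAZ12) and 3 in cat2 gox1 (JAZ8, JAZ9 and JAZ10) were lost in some fits that left out 1 library. JAZ3 was called different between the lines after high light, lower in cat2 gox2 by a log2 difference of -0.52 ± 0.09 (adjusted p = 0.0073), and it is named after its value was seen. With the replicate block JAZ9 was called lower as well (-0.65, adjusted p = 0.0456, against -0.61 ± 0.27 and adjusted p = 0.227 without it), and without both number 3 high CO2 libraries JAZ2 and JAZ9 were (-0.62, adjusted p = 0.0177, and -0.63, adjusted p = 0.0146). In the difference of light responses JAZ3 had -0.56 ± 0.13 (adjusted p = 0.0853), and 0 of 12 genes passed by edgeR (4 at an unadjusted p under 0.05, and 1 with DESeq2).

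For 4 members the genes with the most similar levels over the 12 libraries were looked up among the 13653 genes that averaged 5 CPM or more. These correlations of log2 CPM are descriptions, since the libraries share 4 groups and 1 scaling. LOX2 was followed most closely by AT1G06640 (r = 0.93), AT1G57540 (r = 0.90) and the proteasome subunit gene PAA1 (r = 0.87). LOX3 was followed by AT2G17280 (r = 0.96), the bZIP factor gene GBF3 (r = 0.95) and GPT2 (r = 0.95), which encodes a plastid glucose 6-phosphate translocator. AOS was followed by the calcium-dependent protein kinase gene CDPK6 (r = 0.97), VSP2 (r = 0.89), which encodes a vegetative storage protein, and AT1G52720 (r = 0.88). JAR1 was followed by MIOX1 (r = 0.95), MLO11 (r = 0.94) and BRG2 (r = 0.94). VSP2, known as a jasmonate-induced gene, averaged 137 CPM in cat2 gox2 after high light and 303 CPM under high CO2, and 175 CPM in cat2 gox1 after high light and 38.0 CPM under high CO2.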

How the data were processed

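Messenger RNA from leaves was sequenced in 12 libraries, 3 for each of 4 groups, with a stranded kit per the labels' protocols. Per the submitters' processing notes, the tools were Trim Galore 0.3.3, TopHat2 2.1.0 and featureCounts of Subread 1.4.6, with the TAIR10 genome. The deposited values are whole-number counts of reads per gene, without normalization. How the counting treated strand, and reads that align to more than one place, is not given in the sources used here. Of 33604 entries 2 name no gene and were left out. Names, lengths and sequences came from the RefSeq TAIR10.1 assembly, a release of the same chromosomes, whose table held 32835 of the loci.

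Counts were fitted with edgeR 4.0.16 in R 4.3.3. The filter filterByExpr (minimum count 10, minimum total 15) left 18967 genes. Libraries were scaled by TMM, and a single model with a mean for each group took in all 12 libraries (biological coefficient of variation 0.211). The 5 comparisons were made with two-sided quasi-likelihood tests, adjusted by Benjamini-Hochberg over all genes tested, at a threshold of 0.05. SE is the log2 change divided by the square root of F, and the approximate 95% intervals are 1.96 SE on either side. Such intervals can be narrower than the test allows. That of LOX2 between the lines after high light, 0.56 to 0.97, leaves out 1 at an unadjusted p of 0.0511. A level per kb is CPM divided by the gene's exonic length. Coding sequences were aligned with MAFFT 7.526. The steps were tested on simulated counts.

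The set-up was repeated for each biological repeat per the labels, so the replicate numbers may pair libraries. The main tests did not use this pairing. Correlations of same-numbered deviations ran from 0.54 to 0.80 between the lines under high CO2, from -0.24 to 0.26 between the lines after high light, from -0.19 to 0.52 between the conditions in cat2 gox2 and from 0.07 to 0.33 in cat2 gox1. Between the lines under high CO2 the unlike pairs of numbers 1 and 2 also reached 0.50 and 0.53, beside 0.54 and 0.57 for their like pairs. The correlations there thus barely separate numbers 1 and 2. A fit with the replicate number as a block is given beside a result where it changes the call. Other alternatives were RLE scaling, DESeq2 1.42.0, no filter, a stricter filter, the 2 compared groups alone, and leaving out single libraries or both number 3 high CO2 libraries.

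The members and the pathway lists were chosen with earlier results of these data known. All 10 members are named. Lists of up to 8 genes are described gene by gene and longer ones by counts and their largest changes, and for 4 members the 3 most similar genes are named.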

Additional observations from a re-analysis of the deposited data

How the results depend on the processing

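Depth limits AOC3 most, with 29 to 133 counts per library under high CO2, and 3 libraries per group limit the detection of small changes. RLE scaling and DESeq2 shifted the median of all genes by at most 0.06 (log2) and changed no count of synthesis genes called. With the replicate block 5 genes were called higher and 1 lower in the cat2 gox2 light response, and 1 lower between the lines after high light. The light responses of LOX4 and AOC3 in both lines, and of AOC2 and OPR3 in cat2 gox1, passed the threshold under every alternative run.

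Leaving out 1 library gave 2 to 6 synthesis genes called higher and 0 to 1 lower in the cat2 gox2 light response, and 4 to 7 higher in the cat2 gox1 response. Between the lines after high light it gave 721 to 1624 calls over all genes, beside 1243 with all libraries and 2198 without both number 3 high CO2 libraries, where 2 synthesis genes were called lower. For the difference of light responses it gave 88 to 195 calls over all genes, beside 197 with all libraries and 538 with DESeq2. Between the lines under high CO2, 3 genes were called by edgeR and 5 by DESeq2.

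Values that changed sign were all of genes not called, and the cause was not tested. Without both number 3 high CO2 libraries the light response of AOS was 0.33 in cat2 gox2 and that of AOC4 was 0.11 in cat2 gox1. With 1 library left out, log2 values in the cat2 gox2 light response ran from -0.43 to 0.24 for AOS and from -0.095 to 0.21 for JAR1, and AOC4 in cat2 gox1 from -0.27 to 0.0089. Between the lines after high light they ran from -0.59 to 0.023 for LOX3, from -0.0047 to 0.19 for AOS, from -0.29 to 0.086 for AOC1 and from -0.25 to 0.024 for AOC4. Between the lines under high CO2 they ran from -0.28 to 0.82 for LOX3, from -0.22 to 0.50 for LOX4, from -0.033 to 0.70 for AOC1, from -0.57 to 1.17 for AOC3, from -0.097 to 0.26 for AOC4 and from -0.080 to 0.28 for JAR1. In the difference of light responses they ran from -0.91 to 0.82 for AOC3 and from -0.34 to 0.014 for AOC4.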
